A study of Mus musculus with 36 samples.

Results

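Neurexophilins, neurexins and neuroligins form an adhesion system of synapses, and PAX6 ChIP-seq peaks were examined at 9 of their genes in mouse enteric precursor cells (EPCs): Nxph1, Nxph2, Nxph3, Nxph4, Nrxn2, Nrxn3, Nlgn1, Nlgn2 and Nlgn3. Every peak was taken whose centre lay in the gene body, as annotated on mm9, or within 100 kb of it, and the 9 genes are among 22350 protein-coding genes on chromosomes 1 to 19 and X. The family was selected on peak positions already known from these data, and those positions are what the rule counts, so the numbers of peaks are descriptions and no test was applied to them. Of the 9 genes, 2 had a PAX6 peak, Nxph1 with 3 and Nlgn1 with 1, and the peak of Nlgn1 lay over a peak of the IgG control. The other 7 had none in any list.

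The chromatin came from EPCs of the ganglionic gut of CD1 mice at postnatal day 7, cultured with bFGF, EGF and GDNF, in which they grow as neurosphere-like bodies. The PAX6 antibody was used in 16 libraries, of which 4 formed pool 1, 6 formed pool 2 and 6 formed pool 3, with as many input libraries as PAX6 libraries. Mouse IgG was used in 4 libraries, all labelled with pool 1. Libraries of a group were merged before peaks were called, so each pool and IgG gave 1 list, and there is no value per library and no spread between libraries. The lists held 491 peaks for pool 1, 1032 for pool 2, 724 for pool 3 and 1007 for IgG. The score of a peak is the authors' 10 times −log10 of the MACS p-value, which depends on depth and was ranked only within its own list. Read depth is unknown. The lists hold no expression values, so the labelled cell type could not be checked with marker genes, and nothing here says whether these genes are transcribed in the cells.

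Neurexins are receptors of the presynaptic membrane that hold the synapse together by binding partners across the cleft. Neuroligins are their postsynaptic partners, of which neuroligin 1 is known mainly from excitatory and neuroligin 2 from inhibitory synapses, while neuroligin 3 occurs at both. Neurexophilins are small secreted glycoproteins that bind tightly to the extracellular part of α-neurexins. Enteric neurons use synapses of these kinds in the circuits of gut motility, and mice with a mutation in Nlgn3 have altered gut motility.

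The sequences under 2 of the peaks are shown first, to set a stretch without a long CA or TG repeat beside one with it. Both are read from the plus strand of mm9. Capitals mark the longest uninterrupted CA or TG repeat under the peak. The first is the middle of a peak of pool 1 alone, downstream of Nxph1, on chr6:9229721-9230020, whose longest such run was 6 bp and is not marked. The second is the start of the stretch called in both pool 3 and IgG in Nlgn1, on chr3:25743250-25743549, with a CA run of 21 bp.
Nxph1 downstream: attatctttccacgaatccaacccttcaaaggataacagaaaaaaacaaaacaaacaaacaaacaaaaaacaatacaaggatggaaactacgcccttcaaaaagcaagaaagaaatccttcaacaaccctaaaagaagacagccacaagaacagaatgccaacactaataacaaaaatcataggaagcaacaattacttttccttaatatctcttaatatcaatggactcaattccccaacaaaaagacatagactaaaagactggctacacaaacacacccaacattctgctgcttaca
Nlgn1 shared with IgG: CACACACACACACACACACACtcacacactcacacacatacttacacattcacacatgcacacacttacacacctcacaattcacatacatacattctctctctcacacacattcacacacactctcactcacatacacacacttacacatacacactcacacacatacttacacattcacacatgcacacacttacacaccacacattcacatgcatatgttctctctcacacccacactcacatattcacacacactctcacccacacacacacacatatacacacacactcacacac

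Among the ligands, Nxph1 was the one gene with peaks of more than 1 pool. On mm9 it occupies chromosome 6, positions 8898431 to 9199032 (plus strand), spans 300.6 kb and has 3 annotated transcripts. In pool 1 a peak of 562 bp ran from 9172170 to 9172731 with a score of 57.91, which ranked 337 of 491 and was below the median of the list, 62.05. In pool 2 a peak of 676 bp ran from 9172168 to 9172843 with a score of 95.92, which ranked 172 of 1032 and was above the median of 68.98. Both lay in the same intron of 294.7 kb, with their centres 272.8 kb downstream of the nearest start site of the gene and 24.6 kb before the last exon, which holds most of the coding sequence. Pool 3 and IgG had no peak there, and the nearest IgG peak was 1570 kb away. The peaks thus sat at the same place in 2 of 3 pools, low in one ranking and in the upper part of the other.

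The peaks started 2 bp apart and the peak of pool 1 lay wholly inside that of pool 2. Of the 25 overlapping pairs of peaks from different pools that were free of IgG peaks, this pair had the longest overlap, 562 bp against a median of 327 bp. As a share of the longer peak the overlap was 83.1%, the fourth highest value of the 25 (rank 4). The centres were 55 bp apart. This pair was known when the genes were selected, so its place in that order is a description.

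**Figure D1:**
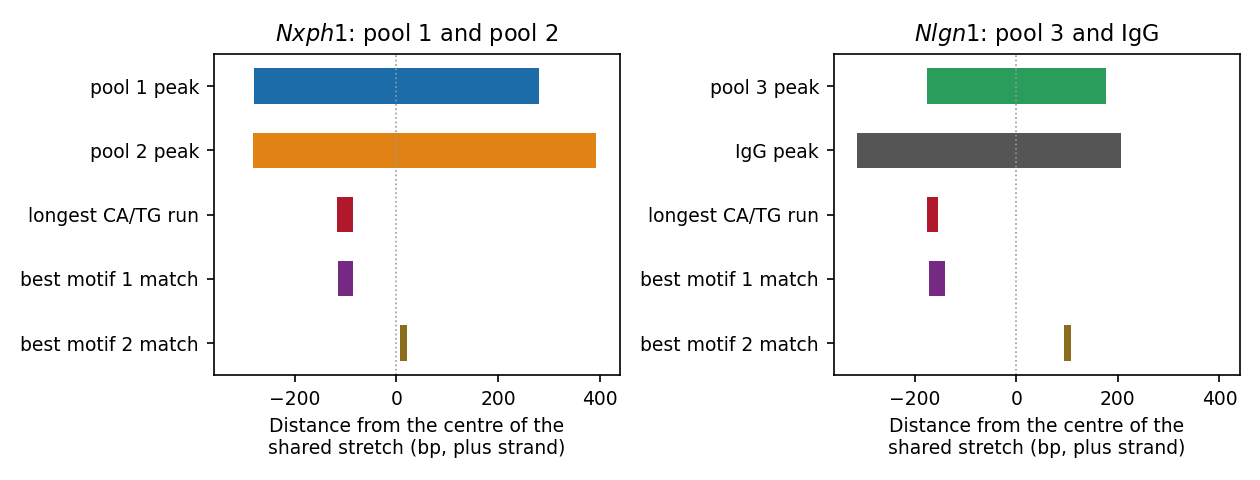
Overlapping peaks in Nxph1 (left, pools 1 and 2) and Nlgn1 (right, pool 3 and IgG) as bars along the plus strand, in bp from the centre of the stretch that both peaks cover, with the longest CA or TG run and the best match to each of the study's motifs. The Nxph1 peaks begin 2 bp apart, and the pool 3 peak of Nlgn1 lies wholly inside the IgG peak.

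A further peak of pool 1, of 545 bp with a score of 70.67 (rank 104 of 491), lay from 9229599 to 9230143, 30.84 kb beyond the 3′ end of Nxph1 and over no annotated gene. Nxph1 was still its nearest gene, with a start site 330.2 kb away. It overlapped no peak of another list. Of the peaks around the 9 genes but outside their bodies, it was the only one inside the limit of 100 kb. The nearest peaks beyond that limit were an IgG peak 130.0 kb upstream of Nxph2, with a score of 50.39 (rank 998 of 1007), and a peak of pool 3 210.0 kb upstream of Nxph1, from 8688205 to 8688579, with a score of 138.11 (rank 158 of 724). With that last one, all 3 pools had a peak in Nxph1 or its neighbourhood. The peak of pool 3 lay upstream of the gene, while the others lay in an intron or downstream.

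The other neurexophilin genes had no peak. Nxph2, of 80.73 kb, was 581.1 kb from the nearest PAX6 peak, which belonged to pool 2. For Nxph3, of 4.726 kb, and Nxph4, of 9.087 kb, those distances were 449.4 kb (pool 3) and 373.6 kb (pool 2).

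The neurexin receptors were free of peaks in all 4 lists. Nrxn2, on chromosome 19 from 6418731 to 6544169, was the farthest of the 9 genes from a PAX6 peak, at 5860 kb. Nrxn3, on chromosome 12 from 89961320 to 91573375, spans 1612 kb, and its nearest peaks lay 340.0 kb (pool 3), 461.0 kb (pool 2), 2396 kb (pool 1) and 2715 kb (IgG) from the gene body. It ranked 10 by length among all protein-coding genes and was the longest of those without a peak in any list. At the genome-wide density of peaks its window of 1812 kb corresponds to 1.52 PAX6 peaks and 0.691 IgG peaks. Of the 52 genes of 1 Mb or more, 71.2% had a PAX6 peak and 48.1% an IgG peak, while 10 of them had no peak at all, so Nrxn3 shared its lack of peaks with 9 others. This length limit was set after its empty window had been seen.

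Among the neuroligins, Nlgn1 had a peak of pool 3 and a peak of IgG at the same place. The gene occupies chromosome 3, positions 25330733 to 26032656 (minus strand, 701.9 kb), and both annotated transcripts begin at the start codon, so distances run from there. The pool 3 peak, from 25743250 to 25743601, had a score of 189.62 and ranked 58 of 724, the best rank of the 4 PAX6 peaks of the family relative to its list (percentile 92.0). The IgG peak, from 25743112 to 25743631, had a score of 87.36 and ranked 103 of 1007. Both lay in an intron of 472.6 kb, about 289.2 kb downstream of the start codon and 68.1 kb from the nearest exon. All 352 bp of the pool 3 peak lay inside the 520 bp of the IgG peak. Pool 3 had 27 such overlaps with IgG, and by score the Nlgn1 peak was the second of these 27 peaks (rank 2). The study's methods state that peaks overlapping those of IgG were left out of further steps, while the deposited list still held this one. The nearest peak of pool 1 lay 2567 kb from Nlgn1 and that of pool 2 1504 kb from it.

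Nlgn2, of 14.66 kb on chromosome 11, and Nlgn3, of 30.12 kb on chromosome X, had no peak. Their nearest PAX6 peaks lay 1738 kb (pool 3) and 3624 kb (pool 2) away.

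**Figure D2:**
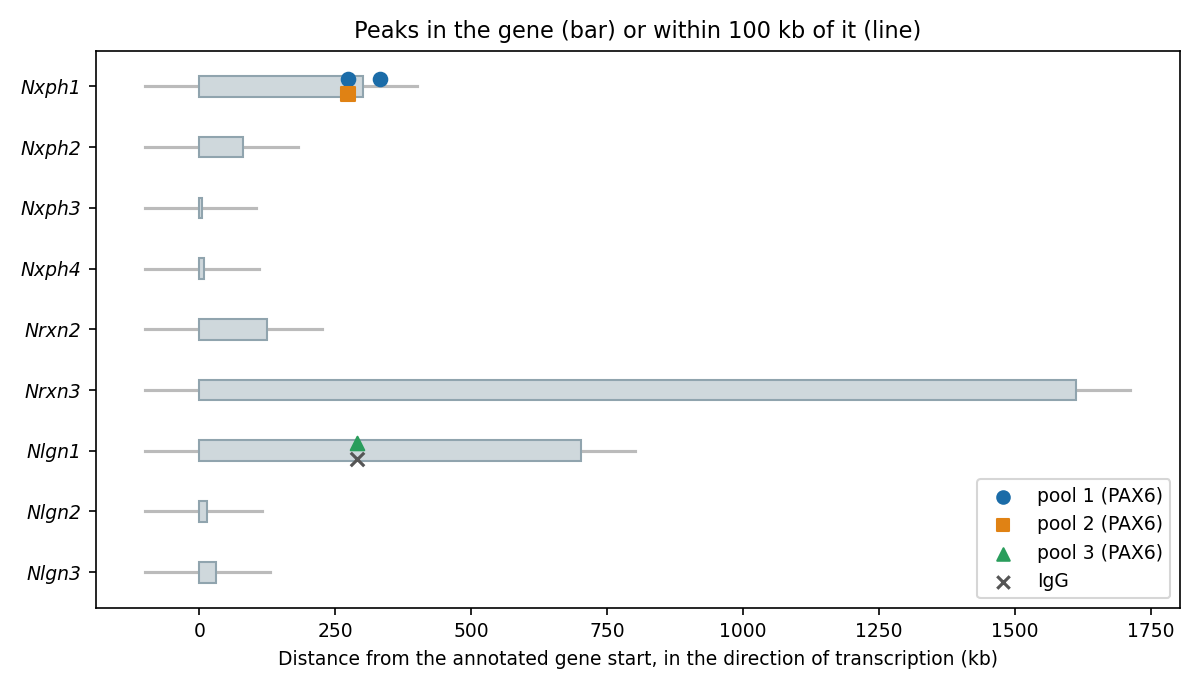
The 9 genes drawn to scale from their annotated start in the direction of transcription (kb), with the gene body as a bar, the 100 kb on each side as a line, and each peak as a symbol by list. The symbols fall on Nxph1 and Nlgn1 alone, 272.8 kb or more from a start site, and the bar of Nrxn3 is empty over 1612 kb.

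**Figure D3:**
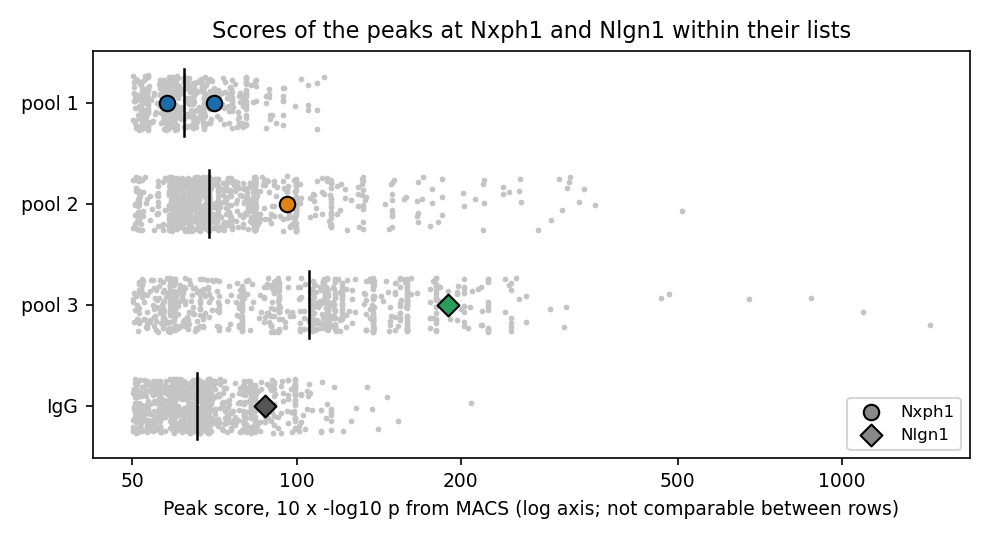
Score of every peak in each list (grey points, spread vertically for legibility, log axis) with the list median as a black line and the peaks of Nxph1 (circles) and Nlgn1 (diamonds) marked. The shared Nxph1 peak is below the median in pool 1 and above it in pool 2, the downstream Nxph1 peak is above the pool 1 median, and the Nlgn1 peaks are above the median in pool 3 and IgG.

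None of the 4 PAX6 peaks lay within 100 kb of a start site of its gene, in an exon or in a promoter. With only the surroundings of start sites counted, the number of PAX6 peaks fell to 0 for the family, and so did that of IgG peaks.

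Long genes hold more peaks by their length, and the family ranges from 4.726 kb to 1612 kb. The 9 windows covered 4.679 Mb, or 0.177% of the genome. They held 4 PAX6 peaks, where that length at the genome-wide density corresponds to 3.93, which is a ratio of 1.02 (exact Clopper-Pearson 95% interval 0.277 to 2.60, covering counting error only). The interval takes the 4 peaks as independent, although 2 of them lay at the same place in Nxph1. Nor does it cover the choice of the genes by their peaks. By pool, 2 peaks were found where the length gives 0.867 in pool 1, 1 where it gives 1.81 in pool 2 and 1 where it gives 1.26 in pool 3. For IgG 1 peak was found where the length gives 1.78. The family as a whole therefore carried as many peaks as stretches of its length do on average. Within it Nxph1 had 3 PAX6 peaks where its window of 500.6 kb gives 0.421, Nlgn1 had 1 where its window gives 0.758, and the rest had 0 where theirs give 0.172 to 1.52. The value of Nxph1 is the one by which it was picked.

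**Figure D4:**
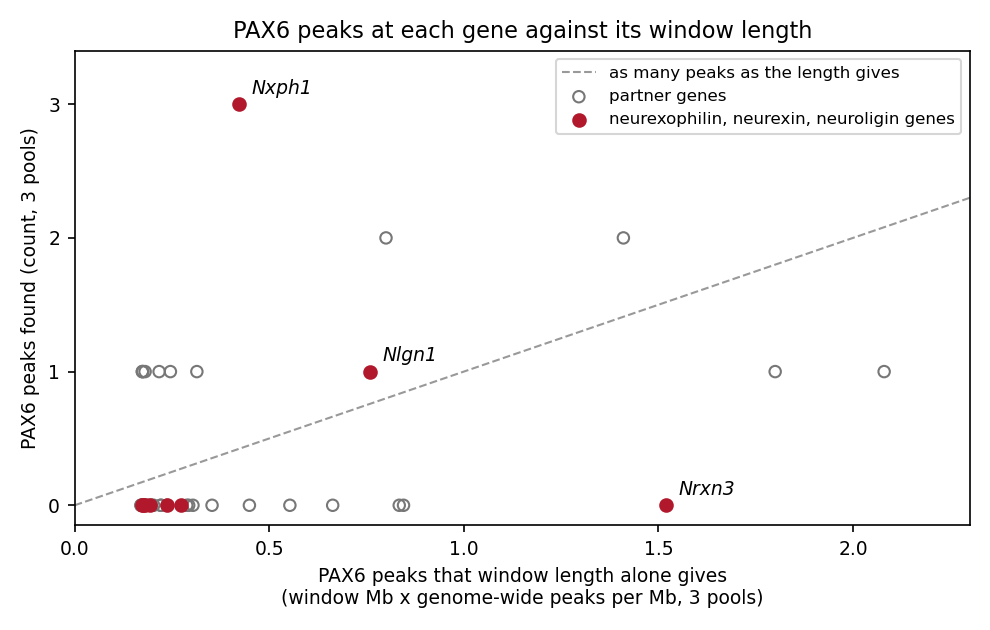
PAX6 peaks found at each gene (vertical axis, count over 3 pools) against the number that the length of its window alone gives (horizontal axis, count), for the 9 genes (filled) and 35 partner genes (open), with a dashed line where both are equal. Nxph1 lies above the line at 3 against 0.421 and Nrxn3 below it at 0 against 1.52.

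Read against all protein-coding genes, the shares were as follows. A PAX6 peak was found at 2 of the 9 genes and at 17.5% of all protein-coding genes. Pool 1 had a peak at 1 of the 9 (4.25% of all), pool 2 at 1 (8.08%), pool 3 at 1 (6.84%) and IgG at 1 (8.63%). Peaks of at least 2 pools were found at 1 gene, Nxph1, against 1.56% of all, and at least 3 PAX6 peaks also at Nxph1 alone, against 0.345%. By length, 0 of the 4 members under 50 kb had a PAX6 peak (15.2% of all genes of that length), 0 of the 2 members of 50 to 200 kb (22.5%) and 2 of the 3 members of 200 kb or more (40.3%). In that longest class 22.1% of genes had an IgG peak, 7.23% had peaks of at least 2 pools and 3.35% had at least 3 PAX6 peaks. With 9 genes or fewer behind each count, and genes that were picked for their peaks, nothing further is read from these shares.

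The longest CA or TG run under the shared Nxph1 peaks was 31 bp of TG. CA, AC, TG or GT made up 43.5% of the dinucleotides of the pool 1 peak and 59.8% of those of the pool 3 peak of Nlgn1, against 25.4% of those of the downstream Nxph1 peak. This run lay 101.5 bp from the centre of the pool 1 peak, towards the start of the gene. It was longer than the longest run of 62.8% of the peaks of pool 1 and of 55.8% of the peaks of pool 2. The CA run of 21 bp in Nlgn1 lay at the very edge of the pool 3 peak, and 22 bp of it lay in the IgG peak.

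Such runs were common in the windows where no peak was called. The window of Nxph1 held 44 runs of at least 20 bp, of which 28 were longer than the 31 bp under the shared peaks. As 31 bp was the longest run under any peak of the gene, these 28 lay outside its peaks by definition. The window of Nlgn1 held 105 runs, 94 of them longer than the one under the IgG peak. Nrxn3 held 216 runs without a peak. Over the 9 windows there were 528, or 11.3 per 100 kb, and 8.79 per 100 kb for Nxph1. A CA or TG run of at least 20 bp was thus found under 3 of the 4 PAX6 peaks of the family, including both overlapping peaks of Nxph1. Over all whole peaks, such a run was present in 49.3% for pool 1, 56.7% for pool 2, 57% for pool 3 and 62.6% for IgG. The windows of Nxph1 and Nlgn1 also held longer runs.

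The study derived a pair of CA or TG motifs, of 30 and 14 letters, from its own selected regions and lists Nxph1 among the genes of the shorter one, so matches there are descriptions. Both motifs were matched there without a mismatch. In Nlgn1 the best matches had 1 mismatch for motif 1, from 25743254 to 25743283, and 0 for motif 2, from 25743520 to 25743533. The downstream Nxph1 peak had 11 and 3 mismatches, over the limits of 6 and 2. With these limits and both strands searched, motif 1 was present in 4.32% of the tiles of 300 bp of the Nxph1 window and 5.16% of those of the Nlgn1 window. Peak centres were searched as 300 bp where the peak was at least that long. Motif 1 was present there in 65.5% for pool 1, 69.1% for pool 2, 78.2% for pool 3 and 84.3% for IgG. Over whole peaks, the way those of Nxph1 and Nlgn1 were searched, it was present in 68.7%, 72.1%, 80.9% and 87.9%, in the same order. For motif 2 the shares were 6.95% and 7.15% of the tiles and 68.7%, 70.6%, 80.3% and 87.3% of the peak centres. Over whole peaks they were 71.8%, 73.2%, 82.2% and 89.5%. Both motifs thus had a higher share in the IgG list than in any of the pools, a difference that was not tested.

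Motifs known for PAX6 were searched as well, on both strands. The core of the site of its paired domain, TTCACGC, was in 0 of the 4 PAX6 peaks and had 2 mismatches at best in the shared Nxph1 peaks, 1 in the downstream peak and 1 in the Nlgn1 peak. In the 300 bp at the centre of the peaks that are at least that long, it was present in 1.05% for pool 1, 0.212% for pool 2, 0% for pool 3 and 0.896% for IgG, and it was in 1.26% of 32851 mouse promoters of 300 bp. The paired homeodomain site, TAAT and ATTA with any 3 bases between them, was also in 0 of the 4 peaks, and in 1.26%, 0.952%, 0% and 0.112% of the same 300 bp of pool 1, pool 2, pool 3 and IgG and 0.487% of the promoters. Over whole peaks, the way the 4 were searched, the core was in 1.23%, 0.491%, 0% and 0.795% of these lists. The homeodomain site was in 2.25%, 0.982%, 0.14% and 0.696% of them. No match says only that these letters were not under these peaks.

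How often a sequence occurs in the genome differed between the peaks. Of the 30-base words of the shared Nxph1 stretch, 92.3% of those in the pool 1 peak and 93.7% of those in the pool 2 peak occurred once in mm9, and the most frequent word occurred 1217430 times, counting overlapping words on both strands. Of the words of the pool 3 peak of Nlgn1, 71.5% occurred once. In the downstream Nxph1 peak 39.7% occurred once, the median number of copies was 8, and 24.2% of the words had more than 100 copies. This median was higher than that of 87.7% of the peaks of pool 1, in which 10.4% of peaks had a median of more than 10 copies. The downstream peak was therefore the most repeated of the 4, although it held no CA or TG run of 20 bp. The part of repeated sequence in its call was not tested.

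The partners of neurexins and neuroligins were described with a list of 35 genes. PAX6 peaks were found at 11 of them (31.4%, beside 17.5% of all protein-coding genes), and IgG peaks at 9 (8.63% of all). By length a PAX6 peak was found at 4 of 16 partner genes under 50 kb (15.2% of all genes of that length), 3 of 9 of 50 to 200 kb (22.5%) and 4 of 10 of 200 kb or more (40.3%). The 35 genes had 13 PAX6 peaks where the length of their windows gives 15, none of the 13 overlapped an IgG peak, and no gene had 3 or more. Pool 2 had a peak at 7 of the genes (8.08% of all protein-coding genes), pool 3 at 3 (6.84%) and pool 1 at 2 (4.25%). This order is also that of the list sizes, and the partners had a median length of 62.43 kb, so nothing further is read from it.

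Among secreted partners, Cbln4, which encodes a cerebellin that bridges neurexins to postsynaptic receptors, had a peak of pool 1 69.6 kb upstream (score 52.58, rank 436) and an IgG peak 59.9 kb upstream, which did not overlap. Cbln2 had a peak of pool 2 33.8 kb upstream (score 61.12, rank 847). C1ql3, a C1q-like ligand, had a peak of pool 1 59.8 kb downstream of its start (score 51.85, rank 459). The PAX6 peaks of these secreted partners were all in the lower part of their lists.

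Among transmembrane partners, Lrrtm1, a postsynaptic ligand of neurexins, had a peak of pool 2 17.8 kb upstream (score 84.05, rank 212). This was the PAX6 peak nearest to a gene start in the partner list. Lphn2, a latrophilin, had a peak of pool 3 69.9 kb upstream (score 56.78, rank 663), and Flrt2, a latrophilin ligand, an intronic peak of pool 2 (score 51.35, rank 1005). Dag1, the gene of dystroglycan, which binds neurexins, had a peak of pool 3 128.7 kb downstream of its start (score 66.4, rank 528). Mdga2, which encodes a blocker of the contact between neurexins and neuroligins, had 2 intronic peaks of pool 2 (scores 65.85 and 68.61, ranks 700 and 576), and an IgG peak of score 125.74 (rank 8) elsewhere in its introns. Ptprd, a receptor phosphatase of the presynaptic side, had an intronic peak of pool 2 with a score of 132.45 (rank 55 of 1032), the highest score of the 13 PAX6 peaks at partner genes.

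Among the scaffolds, Dlg2 had an intronic peak of pool 2 (score 91.03, rank 185) and an IgG peak elsewhere in the gene. Magi2, which encodes a scaffold that binds neuroligins, was the one partner gene with peaks of 2 pools, an intronic peak of pool 2 60.2 kb from its start (score 67.6, rank 643) and one of pool 3 1416 kb from it (score 58.71, rank 623). They did not overlap. None of the 35 genes had peaks of different pools on the same sequence, as Nxph1 had. Such overlaps were few in the whole of the pool lists, with 25 pairs free of IgG peaks among 2247 PAX6 peaks. The share of all protein-coding genes with such a pair was not computed. The lack of one at the partner genes is therefore a description and does not set Nxph1 apart from them.

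By the numbers of peaks in the 4 lists within the same window, 2 genes outside both lists had the pattern of Nxph1 (2, 1, 0 and 0 peaks for pool 1, pool 2, pool 3 and IgG), namely Lyst and Gng4. They are neighbours on chromosome 13, so their windows hold the same 3 peaks, with scores of 70.97 and 58.38 in pool 1 and 60.01 in pool 2. A further 52 genes differed from it by 1 peak, and of these Pde1a (295.0 kb), Ksr2 (349.3 kb) and Tmtc1 (212.0 kb) were the closest to Nxph1 in length. Pde1a had 1 peak of pool 3 more than Nxph1, while Ksr2 and Tmtc1 had 1 peak of pool 1 fewer. The likeness is one of counts over 4 lists. At Lyst and Gng4 the peak of pool 2, from 13845145 to 13845716, and 1 peak of pool 1, from 13845261 to 13845728, also overlapped, by 456 bp, while at Pde1a, Ksr2 and Tmtc1 no peaks of different lists did.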

How the data were processed

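Peaks of PAX6 ChIP and IgG in mouse EPCs were taken as deposited. The authors merged the libraries of each pool before peak calling with MACS, and aligned reads to mm9 with Bowtie (named in the submitters' processing notes). Versions of these tools are not given in the sources used here. In the deposited files the score is 10 times −log10 of the MACS p-value. Files hold positions and scores, with no read counts, so depth and the precision it gives are unknown, and the input libraries have no list of their own.

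Peaks were assigned by their centre to GENCODE M1 genes (NCBIM37, which is mm9) with 100 kb on each side. Numbers given by length are window length times the peaks per Mb of chromosomes 1 to 19 and X. Motif 1 was searched with up to 6 of 30 mismatches, motif 2 with up to 2 of 14, and CA or TG runs from 20 bp. Promoter sequences are RefSeq's for GRCm38 (250 bases before to 50 after the start). Words of 30 bases were counted over the whole genome given. Assignment and motif search were tested on simulated data. Python 3.11.15, numpy 2.4.6, scipy 1.17.1 and matplotlib 3.10.9 were used.

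The members, the partner list and the rules were chosen with earlier results of these data known. Genes named were the members, the partners with a PAX6 peak and the 5 genes whose peak counts came nearest to those of Nxph1. The word counts, the class of 1 Mb or more and the search for longer runs were added after positions had been seen. The sequence of the stretch shared by pools in Nxph1 is not reported here. No test was made, since each list is 1 merged set.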

Additional observations from a re-analysis of the deposited data

How the results depend on the processing

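Of 77 recomputed values, 55 stayed within 1.5 times the reported one, or for the ratio of densities within its counting interval, and 22 did not. Around start sites alone, PAX6 peaks, IgG peaks, genes with either, genes with peaks of 2 pools and the ratio of densities all came to 0. At a score of 100 or more, 1 PAX6 peak, at 1 gene (Nlgn1), was left, with 0 IgG peaks, 0 genes with an IgG peak, 0 genes with peaks of 2 pools and 0 shared regions. At 70 or more the shared region of Nxph1 was lost (0), since its pool 1 peak scored 57.91, while Nxph1 kept peaks of 2 pools. With 200 kb on each side, IgG peaks and genes with one came to 2 each. Without peaks that overlap IgG, 1 gene had a PAX6 peak, Nxph1.

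Leaving out a pool gave 2 to 3 PAX6 peaks (2 without pool 1), 1 to 2 genes with one (1 without pool 3, which alone marks Nlgn1) and 0 to 1 genes or regions shared by pools (0 without pool 1 or pool 2), and a density ratio of 0.652 to 1.41. With a score of 70 or more this ratio was 1.62, over 1.5 times the reported 1.02 but within its counting interval. Mismatch limits and the repeat limit moved the motif counts by at most 1 peak, to 4 for motif 2 and 2 for runs of 30 bp. No paired analysis was possible because each list merges its libraries. With 4 peaks in all, any single peak moves these counts.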
